A study of Mus musculus with 14 samples.

Results

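Trem2, Gpnmb, Cd9, Cd63, Lgals3 and Fabp5 are genes used to mark the lipid-associated or scar-associated macrophage, a state described in injured and fatty liver, adipose tissue and plaque. They were matched by symbol to mouse Ensembl gene IDs in the count tables, which gave 6 genes of 51912 listed. All 6 passed the filter on low counts, which kept 14638 genes. The libraries hold total RNA from pieces of the left liver lobe, 1 library per mouse. Every mouse was 20 weeks old, untreated and carried floxed Tet2 alleles. The AIH group (n = 5) was Tet2fl/fl vav cre+ with spontaneous autoimmune hepatitis. The asymptomatic group (n = 5) was Tet2fl/fl vav cre+ without symptoms. The control group (n = 4) consisted of healthy Tet2fl/fl cre- littermates. Vav-cre is active in the blood cell lineage and not in hepatocytes, and how far Kupffer cells and recruited macrophages were recombined was not tested. No group here carries Cre without floxed alleles, so an effect of Cre itself cannot be told apart from that of the deletion.

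In these macrophages a surface receptor, TREM2, binds lipids, lipoproteins and cell debris, and signals through the adaptor TYROBP (DAP12) to the kinase SYK. The cells take up lipid and dead cell material, enlarge their lysosomes and carry fatty acids with binding proteins. In fibrotic human liver, TREM2+ CD9+ macrophages were described in the scar, and the other 4 genes are commonly listed with them. None of the 6 is made by macrophages alone. Platelets and bile duct cells express Cd9, most cells with lysosomes or secretory granules express Cd63, and several activated or dividing cell types express Lgals3 or Fabp5.

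Gene counts totalled 15.97 to 18.92 M counts (M, mega). Reads with several alignments made up 28.8% to 37.0% of a library and were counted for no gene. Read from Xist and Y-linked transcripts, the sexes were 4 females and 1 male (AIH 4) in AIH, 5 males in the asymptomatic group, and 2 females (controls 2 and 3) and 2 males in controls. Between AIH and asymptomatic livers, sex and AIH can therefore hardly be told apart. The AIH libraries carry the numbers 11 to 15 and the rest 1 to 10, so a numbering by preparation and AIH cannot be told apart. Tet2 had 7.33 to 15.4 CPM in AIH, 4.76 to 9.23 CPM in asymptomatic and 8.53 to 11.97 CPM in control livers (CPM, counts per M counts of the library after TMM scaling). A whole-gene count from whole liver does not check the deletion of a floxed part in blood cells. AIH livers held more RNA of many blood cell markers: the summed level of 8 macrophage markers was 814 to 2790 CPM in AIH, 346 to 428 CPM in asymptomatic and 293 to 640 CPM in control livers. In bulk liver, more cells of a type and more RNA per cell cannot be told apart.

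In AIH against control livers, 5 of the 6 genes were higher at an adjusted p under 0.05, against a background of 15.6% of the genes tested that were higher and 6.08% that were lower (21.7% in either direction). P-values are from edgeR's quasi-likelihood test across all tested genes with Benjamini-Hochberg adjustment. The median log2 fold change of the 6 genes was 2.72, and that of all genes tested was -0.01. In AIH against asymptomatic livers, again 5 of 6 were higher, with a background of 19.1% higher and 10.6% lower (29.7% in either direction) and a median of 3.01 (-0.03 over all genes). In asymptomatic against control livers 0 of 6 were called, as were 0% of all genes, and the median of the 6 was -0.10 (0.00 over all genes). None of the 6 had an unadjusted p under 0.05 in asymptomatic against control livers, as 1542 of 14638 genes did, and none was among the 118 genes called by DESeq2 or the 1299 called by limma-voom. The comparisons share libraries with each other and are not independent.

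**Figure D1:**
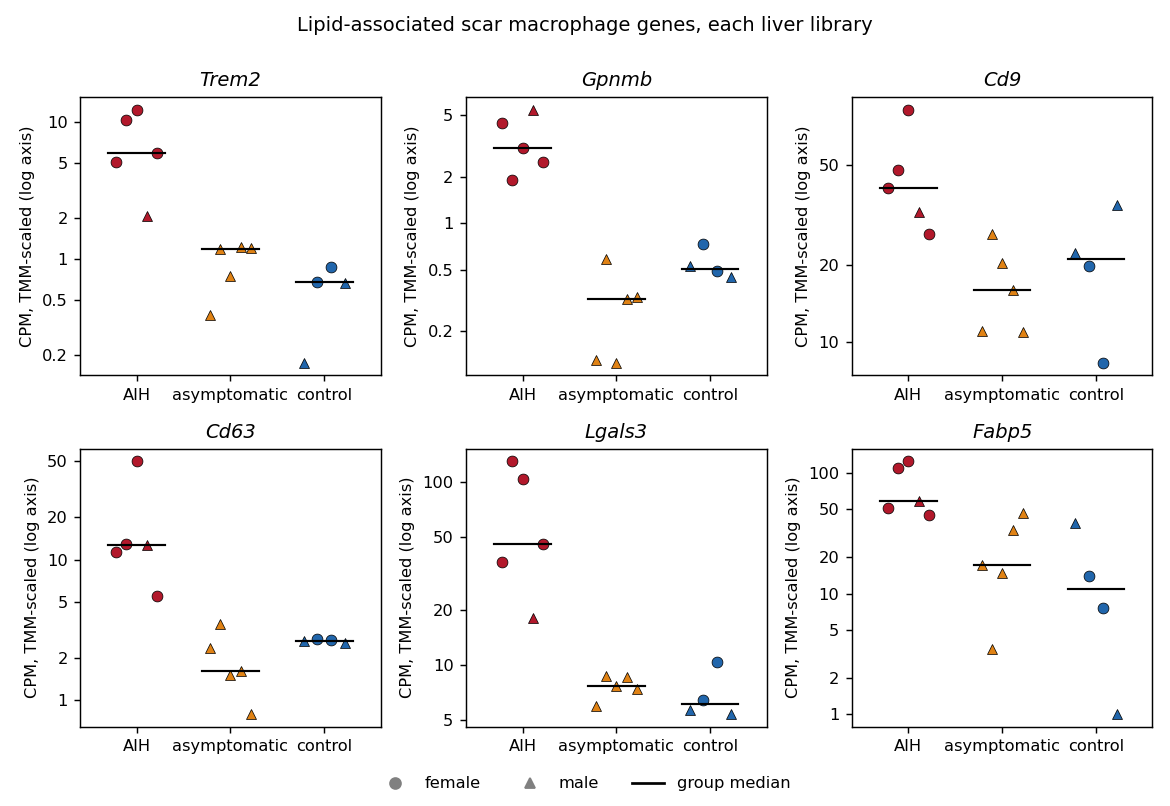
Level of each gene in every liver library (vertical log axis, CPM after TMM scaling), with AIH, asymptomatic and control livers from left to right. Circles are females, triangles are males and lines are group medians. All 5 AIH points lie above all other points for Trem2, Gpnmb, Cd63 and Lgals3, whereas Cd9 and Fabp5 overlap with 1 of the other groups.

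Trem2 (ENSMUSG00000023992, GRCm38 chromosome 17, 48346401 to 48354147, plus strand) encodes the lipid-sensing receptor that gives the state one of its names. Its level was 5.08, 10.2, 12.2, 2.07 and 5.95 CPM in AIH livers 1 to 5. The asymptomatic livers 1 to 5 held 0.390, 1.18, 0.752, 1.23 and 1.196 CPM. The controls 1 to 4 held 0.175, 0.678, 0.871 and 0.670 CPM. Every AIH liver was above every other liver, and the lowest of them, AIH 4, was the male. Few reads lay behind the levels outside AIH: single libraries held 37 to 211 counts in AIH, 6 to 20 in asymptomatic and 3 to 16 in control livers. The log2 fold change was 3.55 ± 0.55 (SE) in AIH against control livers (edgeR adjusted p = 0.000448) and 2.90 ± 0.49 in AIH against asymptomatic livers (adjusted p = 0.000568). With sex as a term the AIH against asymptomatic value was 1.59 and missed the threshold (adjusted p = 0.102). Among males, with 1 AIH animal assumed to vary like the others, it was 1.11 (adjusted p = 0.458), and 2.24 against control males (adjusted p = 0.242). Asymptomatic and control livers overlapped, with a log2 difference of 0.65 ± 0.54 (adjusted p = 0.686).

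Gpnmb (ENSMUSG00000029816, chromosome 6, 49036546 to 49070929, plus strand) encodes a transmembrane glycoprotein of lysosomes and melanosomes that rises in macrophages under lysosomal stress. AIH livers 1 to 5 held 4.46, 1.89, 3.09, 5.42 and 2.47 CPM. Asymptomatic livers 1 to 5 held 0.1299, 0.588, 0.125, 0.323 and 0.332 CPM. Controls 1 to 4 held 0.5256, 0.734, 0.490 and 0.446 CPM. All AIH livers were above all others, and here the male AIH 4 was the highest and AIH 2 the lowest. The counts behind these levels were small, 331 in all AIH libraries, 24 in all asymptomatic and 39 in all control libraries. The log2 fold change was 2.64 ± 0.43 in AIH against control livers (edgeR adjusted p = 0.000645) and 3.49 ± 0.43 in AIH against asymptomatic livers (adjusted p = 4.364e-05). Asymptomatic livers averaged 0.2996 ± 0.190 CPM (SD, n = 5) and controls 0.549 ± 0.128 CPM (SD, n = 4). This difference, -0.85 ± 0.46 on the log2 scale, missed the threshold (edgeR adjusted p = 0.540). Gpnmb and Lgals3 kept their calls in both AIH comparisons under each of the 21 alternative settings run for each, of which the setting with males alone rests on 1 AIH animal.

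Cd9 (ENSMUSG00000030342, chromosome 6, 125460266 to 125494791, minus strand) encodes a tetraspanin, a membrane protein that gathers integrins and other receptors into patches. AIH livers 1 to 5 held 40.4, 47.9, 82.5, 32.6 and 26.7 CPM. Asymptomatic livers 1 to 5 held 10.98, 26.7, 20.4, 16.0 and 10.9 CPM. Controls 1 to 4 held 22.3, 20.0, 8.27 and 34.8 CPM. Control 4 lay above AIH 4 and AIH 5, so AIH and control livers overlapped, and AIH 5 lay level with asymptomatic 2. The log2 fold change of 1.11 ± 0.41 in AIH against control livers missed the threshold (edgeR adjusted p = 0.0660). It passed with DESeq2 (adjusted p = 0.0299), with library totals alone (0.0379), without control 4 (0.0378) and without AIH 5 (0.0459). Against asymptomatic livers Cd9 was higher in AIH by 1.43 ± 0.38 (adjusted p = 0.0118), a call lost with sex as a term (1.75, adjusted p = 0.0665) and among males (0.93, adjusted p = 0.338).

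Cd63 (ENSMUSG00000025351, chromosome 10, 128900989 to 128912822, plus strand) encodes a tetraspanin of late endosomes, lysosomes and exosomes. AIH livers 1 to 5 held 11.3, 12.9, 49.9, 12.6 and 5.499 CPM. Asymptomatic livers 1 to 5 held 2.34, 3.47, 1.504, 1.61 and 0.798 CPM. Controls 1 to 4 held 2.63, 2.71, 2.67 and 2.57 CPM. All AIH livers were above the others, AIH 3 stood far above the rest of its group, and the 4 controls lay close together. The log2 fold change was 2.80 ± 0.57 in AIH against control livers (edgeR adjusted p = 0.00290) and 3.23 ± 0.53 in AIH against asymptomatic livers (adjusted p = 0.000491). Without AIH 3 these values were 1.99 (adjusted p = 0.00188) and 2.43 (adjusted p = 0.000223). The call against controls was lost among females alone (2.86, adjusted p = 0.106) and among males alone (2.26, adjusted p = 0.107). A processed copy, Cd63-ps, had 1.36 to 14.8 CPM in AIH, 0.501 to 1.29 in asymptomatic and 1.14 to 1.67 in control livers, with its highest value also in AIH 3. Reads that fit both copies were not counted, so the level of Cd63 is uncertain. The same limit holds for Cd9 and Fabp5, which also have processed copies. A library held 3 to 18 counts of Cd9-ps and 0 to 7 counts of Fabp5l2.

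Lgals3 (ENSMUSG00000050335, chromosome 14, 47367751 to 47386160, plus strand) encodes galectin-3, a lectin that binds galactose-bearing sugars, gathers at damaged lysosomes and is secreted by activated macrophages. AIH livers 1 to 5 held 36.5, 130, 103, 18.0 and 45.6 CPM. Asymptomatic livers 1 to 5 held 5.98, 8.76, 7.71, 8.59 and 7.38 CPM. Controls 1 to 4 held 5.72, 6.49, 10.4 and 5.41 CPM. The lowest AIH liver, the male AIH 4, was still above the highest of the others, control 3. The log2 fold change was 3.25 ± 0.48 in AIH against control livers (edgeR adjusted p = 0.000326) and 3.11 ± 0.44 in AIH against asymptomatic livers (adjusted p = 0.000145). Among males, where AIH 4 is the only AIH animal and is assumed to vary like the others, the same contrasts gave 1.67 (edgeR adjusted p = 0.0218) and 1.22 (adjusted p = 0.0239). Asymptomatic and control livers differed by 0.13 ± 0.44 (adjusted p = 0.937).

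Fabp5 (ENSMUSG00000027533, chromosome 3, 10012548 to 10016607, plus strand) encodes a fatty acid binding protein of skin, immune and dividing cells that carries fatty acids in the cytosol. AIH livers 1 to 5 held 50.6, 109, 124, 58.5 and 45 CPM. Asymptomatic livers 1 to 5 held 17.2, 3.47, 14.9, 33.8 and 46.6 CPM. Controls 1 to 4 held 38.2, 14.1, 7.56 and 1.005 CPM. Every AIH liver was above every control, but asymptomatic 5 was above AIH 5. The spread without hepatitis was wide: the highest control had 38.0 times the lowest, and the highest asymptomatic liver 13.4 times the lowest, against 2.76 times in AIH. The log2 fold change of 2.35 ± 0.80 in AIH against control livers passed narrowly (edgeR adjusted p = 0.0495). It was lost in 14 of 21 alternatives, 8 of them with 1 library left out (adjusted p = 0.0507 to 0.116, the lowest value being 1.93 without control 4). Without control 1 the call was kept, at 3.34 (adjusted p = 0.0179). The value of 1.74 ± 0.72 against asymptomatic livers missed the threshold (adjusted p = 0.0827) and passed when these 2 groups were fitted alone (adjusted p = 0.0384).

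Beside these counts of calls, groups did not overlap for 5 of 6 genes in AIH against control livers (all but Cd9), with a background of 13.2% of genes tested that lay wholly above and 6.61% wholly below. The same held for 5 of 6 in AIH against asymptomatic livers (all but Fabp5), with backgrounds of 12.3% and 4.65%. For Cd9 this rests on near-equal values, 26.69 CPM in AIH 5 and 26.68 CPM in asymptomatic 2. Asymptomatic and control livers overlapped for all 6, with backgrounds of 1.27% wholly above and 1.15% wholly below. Leaving out 1 library at a time left 4 or 5 members called in AIH against control livers and 5 in AIH against asymptomatic livers.

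**Figure D2:**
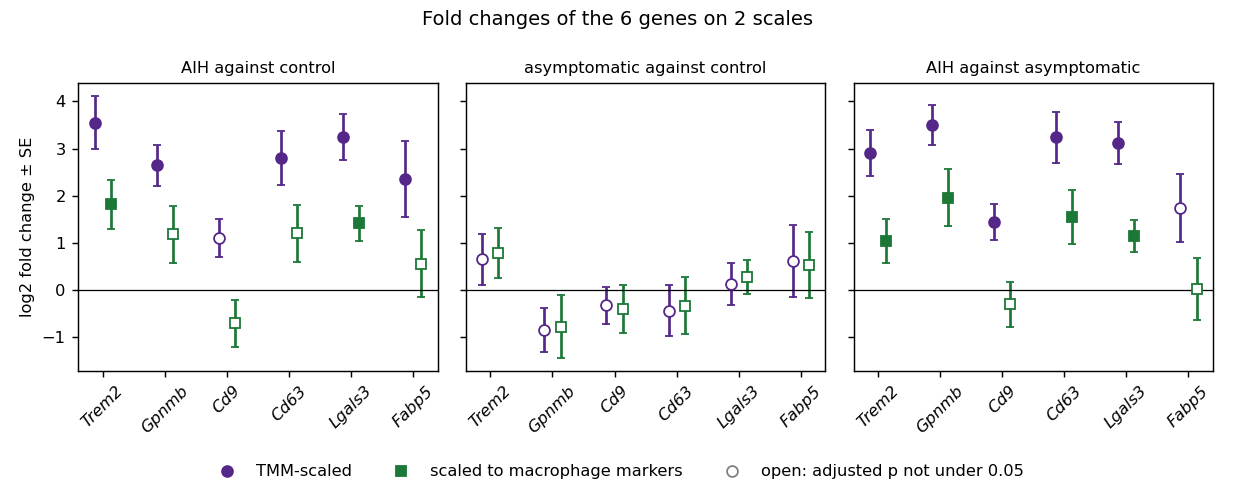
Log2 fold change of each gene with its standard error in 3 panels (from the left, AIH over control, asymptomatic over control, AIH over asymptomatic), from the fit with TMM scaling and from the fit scaled by 8 macrophage markers (open symbols missed the threshold of 0.05). Values of Trem2, Gpnmb, Cd63 and Lgals3 stay above 0 on both scales in both AIH comparisons, and Cd9 is below 0 on the macrophage scale in all 3 panels. In fits not drawn, Cd9 was 0.0107 in AIH against asymptomatic livers with 3 of the markers alone as the scale. It reached 0.108 in asymptomatic against control livers with 1 library left out.

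Levels were set between genes only per length of exon, taken as the union of all annotated exons of a gene. This union can exceed the length of a single transcript. It was 3567 bases for Fabp5 and 2044 bases for Cd9, so the order of these genes depends on the length used. In AIH livers the mean was 35.9 ± 25.6 CPM per kb for Lgals3, 22.5 ± 10.7 for Cd9, 21.8 ± 10.3 for Fabp5, 5.01 ± 4.85 for Cd63, 1.44 ± 0.827 for Trem2 and 0.532 ± 0.223 for Gpnmb (SD, n = 5). The order of Lgals3, Cd9 and Fabp5 changed between AIH livers. In AIH 2 Lgals3 was the highest of the 3 (69.83, against 23.42 for Cd9 and 30.68 for Fabp5). In AIH 4 Lgals3 was the lowest (9.688, against 15.94 and 16.39). In controls Cd9 had the highest mean, 10.4 ± 5.31 CPM per kb, followed by Fabp5 with 4.26 ± 4.55 and Lgals3 with 3.77 ± 1.24 (SD, n = 4). Cd9 was above Fabp5 within every control, narrowly in control 1 (10.91 against 10.71) and widely in control 4 (17.01 against 0.2816). Trem2 and Gpnmb were the lowest of the 6 in every group, at 0.192 ± 0.0744 and 0.0460 ± 0.0291 CPM per kb in asymptomatic livers and 0.121 ± 0.0600 and 0.0843 ± 0.0196 CPM per kb in control livers.

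To set the 6 genes against general macrophage transcripts, the fit was repeated with each library scaled by its mean log2 level of the 8 macrophage markers, among them Adgre1, Csf1r, C1qa and Cd68. On this scale 3.89% of genes tested were higher in AIH than in control livers and 79.2% were lower, with a median over all genes of -1.68. Trem2 was higher by 1.81 ± 0.52 (edgeR adjusted p = 0.00356) and Lgals3 by 1.41 ± 0.37 (adjusted p = 0.00179), so that 2 of 6 were called. Cd63 (1.202 ± 0.61, adjusted p = 0.0713), Gpnmb (1.18 ± 0.61, adjusted p = 0.0783), Fabp5 (0.56 ± 0.70, adjusted p = 0.457) and Cd9 (-0.71 ± 0.51, adjusted p = 0.194) missed the threshold. Gpnmb and Cd63 passed it without AIH 2 (1.44 and 1.43, adjusted p = 0.0224 and 0.0341) and without AIH 5 (1.37 and 1.46, 0.0493 and 0.0246), Fabp5 without control 1 (1.84, 0.0221), and Cd9 was called lower without control 3 (-1.04, 0.0451). On the TMM scale, 7 of the 8 markers were called higher in both AIH comparisons. Their median log2 fold change in AIH against control livers was 2.002. The median of 8 recruited monocyte markers was 3.65 and that of 8 Kupffer cell markers 1.84, with Marco among the latter at 3.85. Larger rises than those of the macrophage markers were therefore not particular to the 6 genes.

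Against asymptomatic livers, 4 of 6 were higher relative to the macrophage markers, with a background of 4.02% higher and 79.4% lower. Sex and AIH can hardly be told apart in this comparison. The fit on this scale was not run with sex as a term or within a single sex. Gpnmb was higher by 1.96 ± 0.60 (edgeR adjusted p = 0.00547), Cd63 by 1.54 ± 0.57 (0.0177), Lgals3 by 1.14 ± 0.34 (0.00443) and Trem2 by 1.04 ± 0.47 (0.0451). Fabp5 (0.03 ± 0.65, adjusted p = 0.969) and Cd9 (-0.30 ± 0.48, adjusted p = 0.560) missed the threshold. Without AIH 3 the values of Trem2 (0.60, adjusted p = 0.2201) and Cd63 (0.70, adjusted p = 0.190) missed the threshold, and that of Trem2 also did without AIH 1 or without asymptomatic 1, 3 or 5 (adjusted p = 0.0591 to 0.113). Between asymptomatic and control livers 0 of 6 were called on this scale (background 0%).

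The 5 AIH livers did not rank alike for the 6 genes. AIH 3 was the highest for Trem2, Cd9, Cd63 and Fabp5, and AIH 2 was the highest for Lgals3. AIH 4 was the lowest for Trem2 and Lgals3 and the highest for Gpnmb, and AIH 2 was the lowest for Gpnmb. Gpnmb therefore ran against Trem2 and Lgals3 in both of these livers. AIH 5 was the lowest for Cd9, Cd63 and Fabp5.

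Marker sums differed among these livers as well. Summed macrophage markers were 1037, 2790, 1288, 814 and 1625 CPM in AIH 1 to 5, highest in AIH 2 and lowest in AIH 4. Summed neutrophil markers were 322, 1214, 1262, 20.5 and 94.4 CPM, with AIH 4 again the lowest. Neutrophil markers ran from 1.88 to 8.85 CPM in asymptomatic and from 2.34 to 4.69 CPM in control livers, where Ly6g, Mpo and Camp each had 3 counts or fewer over the whole group. All 8 neutrophil markers tested were called higher in AIH against control livers, as were 8 of 8 recruited monocyte, 6 of 8 Kupffer cell, 6 of 6 T cell and 6 of 6 B and plasma cell markers.

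Other cells that carry Cd9 or Cd63 also left traces. Summed megakaryocyte and platelet markers were 48.6, 59.0, 60.5, 3.801 and 30.9 CPM in AIH 1 to 5, against 2.45 to 4.65 CPM in asymptomatic and 2.46 to 3.65 CPM in control livers. Summed stellate cell and fibroblast markers were 388, 212, 610, 378 and 290 CPM in AIH 1 to 5, highest in AIH 3, against 86.1 to 216 CPM in asymptomatic and 137 to 208 CPM in control livers, with 3 of 7 called higher in AIH against control livers. Summed bile duct markers overlapped between groups, at 5.44 to 24.6 CPM in AIH, 6.77 to 12.1 CPM in asymptomatic and 5.71 to 14.4 CPM in control livers, again highest in AIH 3 within AIH, with 0 of 5 called in AIH against control livers and 1 of 5 called higher in AIH against asymptomatic livers. Proliferation markers, 6 of 6 called higher, summed to 84.4 to 168 CPM in AIH, 5.98 to 11.6 CPM in asymptomatic and 5.93 to 10.6 CPM in control livers. The part of each of these cell types in the levels of the 6 genes was not tested.

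**Figure D3:**
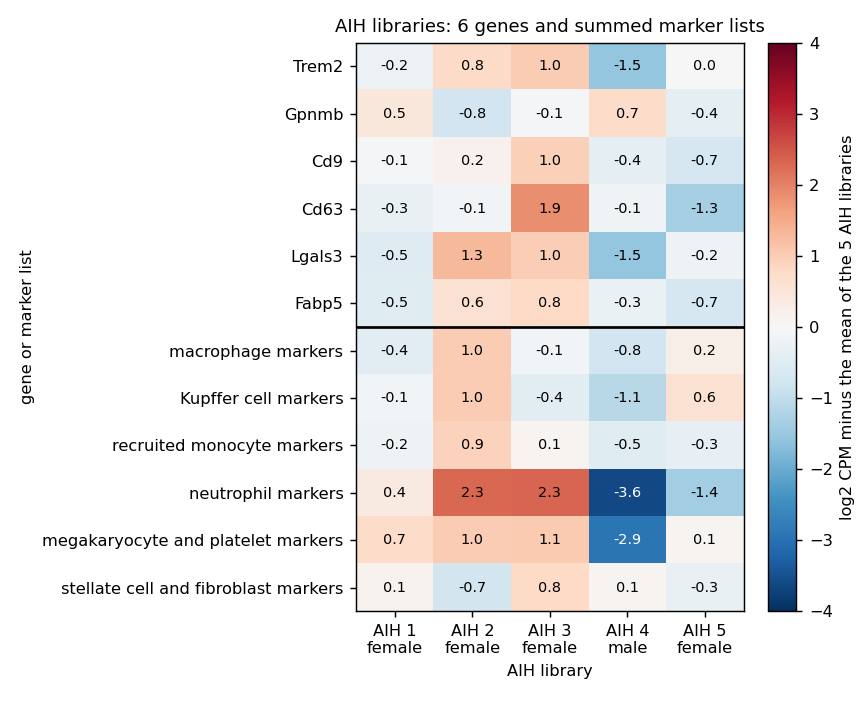
Log2 level of the 6 genes and of 6 summed marker lists in each AIH library, minus the mean of the 5 AIH libraries (colour and number, log2 units). Columns are AIH 1 to 5 with their sex. Gpnmb is at -0.77 in AIH 2 and 0.75 in AIH 4, whereas Lgals3 is at 1.30 and -1.55, and neutrophil markers span from -3.60 in AIH 4 to 2.34 in AIH 3.

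The genes whose profiles lay nearest were found by the mean absolute difference of log2 CPM, each gene centred over the 14 libraries, among 12031 tested genes of at least 1 CPM on average. For Trem2 the nearest was Lgals3 at 0.36, followed by Milr1 (0.37) and Plac8 (0.38). For Lgals3 the nearest included Selplg, the selectin ligand of leukocytes (0.27), and Fxyd5 (0.28), and Trem2 took place 27. For Gpnmb they were Slc7a1 (0.34), Chst11 (0.35) and Bub1b (0.36).

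Cd63 lay nearest to Glipr2 (0.36), Col1a2, a chain of type I collagen (0.36), and Col6a2, a chain of type VI collagen (0.39). Cd9 lay nearest to Hmga1 (0.30), Rhoc (0.30) and Fhl1 (0.31). Fabp5 had no close neighbour: its nearest were the DNA synthesis genes Rrm2 (0.72) and Mcm6 (0.81) and then Chac1 (0.85). Among the 6 genes themselves, Fabp5 was 1.15 to 1.43 from each of the others, and after Trem2 with Lgals3 the closest pair was Gpnmb with Cd63 at 0.65. All genes that differ between AIH and the other livers share part of such a distance.

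The start regions of the members were read from RefSeq windows of GRCm38.p6, 250 bases before to 50 bases after an annotated start, which held 5 of the 6 genes. They were searched on both strands for 4 short motifs: the E-box CACGTG and the M-box letters TCATGTG, which the lysosomal MITF and TFE factors bind, the AP-1 site TGANTCA, and the site GAGGAAG of PU.1, a factor of myeloid cells. AP-1 letters were found in Trem2 and Gpnmb, and in 7.81% of all 32851 windows. PU.1 letters were found in Trem2 and Cd63, and in 13.6% of all windows. CACGTG (7.15% of windows) and TCATGTG (3.77%) were in none of the 5. The 3 windows with a match are shown because these genes rose in AIH livers. Each is written 5′ to 3′ on the plus strand, chr17:48346151-48346450 for Trem2, chr6:49036268-49036567 for Gpnmb and chr10:128909095-128909394 for Cd63, with the matches in capitals.
Trem2: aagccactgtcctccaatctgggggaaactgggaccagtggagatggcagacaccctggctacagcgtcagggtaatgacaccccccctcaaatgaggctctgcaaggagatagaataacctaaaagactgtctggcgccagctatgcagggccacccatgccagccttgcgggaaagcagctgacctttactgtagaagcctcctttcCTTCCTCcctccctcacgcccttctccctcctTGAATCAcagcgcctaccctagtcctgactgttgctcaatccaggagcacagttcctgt
Gpnmb: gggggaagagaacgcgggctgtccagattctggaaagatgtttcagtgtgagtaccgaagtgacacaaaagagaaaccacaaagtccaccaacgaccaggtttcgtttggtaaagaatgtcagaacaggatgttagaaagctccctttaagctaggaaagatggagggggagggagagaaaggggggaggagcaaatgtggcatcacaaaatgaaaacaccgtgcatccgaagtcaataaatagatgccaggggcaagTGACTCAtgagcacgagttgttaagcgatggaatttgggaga
Cd63: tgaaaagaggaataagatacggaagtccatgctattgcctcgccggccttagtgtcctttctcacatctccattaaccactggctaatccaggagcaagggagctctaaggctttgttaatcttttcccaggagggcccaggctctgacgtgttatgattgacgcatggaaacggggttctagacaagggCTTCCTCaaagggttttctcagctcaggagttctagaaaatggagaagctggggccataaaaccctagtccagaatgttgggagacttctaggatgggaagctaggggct
In Trem2 the first capitals, CTTCCTC, are the PU.1 letters read on the minus strand, 41 bases before the start, and the second, TGAATCA, are AP-1 letters 9 bases before it. In Gpnmb the capitals TGACTCA begin 8 bases after the start of its window. That start is 28 bases upstream of the first annotated base of the gene in GENCODE, so the letters lie before that base. In Cd63 the PU.1 letters, also on the minus strand, lie 60 bases before a start that is 8356 bases downstream of the first annotated base of the gene in GENCODE. The windows of Cd9 and Lgals3 held no match, which says only that these letters are not in those windows, and that of Lgals3 surrounds a start 6109 bases downstream of the first annotated base of its gene.

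Of 13 genes of the TREM2 signalling path, 11 were higher in AIH than in control livers, with a median log2 fold change of 2.33, and 11 were higher than in asymptomatic livers, with a median of 2.38. None was called lower. Over all genes tested 15.6% were higher in AIH than in control livers and 19.1% higher than in asymptomatic livers, and the counts of this and the following lists stand beside those shares. Syk, the kinase that docks on TYROBP, averaged 65.2 ± 5.48 CPM in AIH and 9.76 ± 2.41 CPM in control livers (SD, n = 5 and 4), a log2 fold change of 2.74 ± 0.21 (edgeR adjusted p = 7.03e-06). Inpp5d (2.18 ± 0.19), the phosphatase SHIP1, Plcg2 (2.67 ± 0.28), a phospholipase below SYK, and Vav1 (2.602 ± 0.30), a guanine nucleotide exchange factor, rose likewise. Tyrobp itself rose by 2.51 ± 0.45 (adjusted p = 0.00130). These genes act below many receptors of blood cells. The lipoprotein ligands Apoe (-0.46 ± 0.16, adjusted p = 0.0515) and Clu (0.17 ± 0.19, adjusted p = 0.573), which hepatocytes make in bulk, were the 2 not called.

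Of 28 other genes of the lipid-associated macrophage programme, 14 were higher in AIH than in control livers (median 0.76) and 17 higher than in asymptomatic livers (median 1.42), with none lower. Itgax, the integrin CD11c, averaged 22.8 ± 14.5 CPM in AIH and 1.123 ± 0.350 CPM in control livers, a log2 fold change of 4.33 ± 0.51 (edgeR adjusted p = 5.28e-05). Cst7, a cathepsin inhibitor, averaged 3.41 ± 2.504 CPM in AIH and 0.0277 ± 0.0320 CPM in control livers (adjusted p = 0.000147). Axl, a receptor for dying cells (1.62 ± 0.23), and Abcg1, a cholesterol exporter (1.52 ± 0.24), rose as well. Genes with a negative, uncalled value against controls included Plin2, the coat protein of lipid droplets (-1.17 ± 0.40, adjusted p = 0.0510), Cd36, a fatty acid transporter (-0.75 ± 0.44, adjusted p = 0.247), and Lipa, the lysosomal acid lipase (-0.57 ± 0.31, adjusted p = 0.213). Against asymptomatic livers Cd36 was called higher in AIH (1.26 ± 0.42, edgeR adjusted p = 0.0358). There Lipa (0.13 ± 0.29) and Plin2 (-0.32 ± 0.38) were not called. This list shares Apoe with the signalling path, Cd68 with the macrophage markers, Lgals1 with the galectins and Fabp4 with the fatty acid binding proteins.

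Of 16 regulators and membrane or lumen proteins of lysosomes, 5 were higher in AIH than in control livers (median 0.24), where 15.6% of all genes were higher, and 6 higher and 1 lower than in asymptomatic livers (median 0.12), where 19.1% of all genes were higher and 10.6% lower. Among those with the smallest p against controls were the thioesterase Ppt1 (0.96 ± 0.17, edgeR adjusted p = 0.00120), the transcription factor Tfec (1.44 ± 0.36, adjusted p = 0.0101), and the hydrolase Gusb (0.50 ± 0.13). The channel Mcoln1 was lower against asymptomatic livers (-0.41 ± 0.15, adjusted p = 0.0441). The relatives of Tfec were not called in either: against controls Tfeb had 0.29 ± 0.19, Tfe3 0.31 ± 0.15 and Mitf 0.14 ± 0.24.

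The families of the 6 genes were mixed. Of 22 tested tetraspanins other than Cd9 and Cd63, 7 were higher and 1 lower in AIH than in control livers (median 0.73), and 12 higher and 2 lower than in asymptomatic livers. Cd53 (2.73 ± 0.27), Cd37 (3.15 ± 0.32), Tspan13 (2.91 ± 0.33) and Tspan32 (3.91 ± 0.45) led the rises, the first 2 being tetraspanins of leukocytes, and Tspan12 fell (-0.65 ± 0.15, edgeR adjusted p = 0.00725). Of 5 tested galectin genes and relatives other than Lgals3, Lgals3bp, which encodes a secreted partner of galectin-3, rose (0.85 ± 0.16, adjusted p = 0.00145), and Lgals8 fell (-0.63 ± 0.17, adjusted p = 0.0170). Lgals4 (-1.23 ± 0.46, adjusted p = 0.0728), Lgals1 (0.47 ± 0.56) and Lgals9 (-0.19 ± 0.19) were not called.

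All 4 tested relatives of Fabp5 were called in both AIH comparisons, in opposite directions. Fabp4, the form of fat cells, macrophages and capillaries, averaged 60.5 ± 54.9 CPM in AIH and 6.82 ± 1.05 CPM in control livers (SD, n = 5 and 4), a rise of 3.15 ± 0.56 (edgeR adjusted p = 0.00121). Fabp7 rose by 1.52 ± 0.52 (adjusted p = 0.0482) with overlap between groups. Fabp1, the liver form, fell to 2151 ± 650 CPM in AIH livers, against 4099 ± 537 CPM in control livers (-0.93 ± 0.23, adjusted p = 0.0106), and Fabp2, the intestinal form, was lower by -1.46 ± 0.35 (adjusted p = 0.00823). Of 7 hepatocyte markers, 1 was lower in AIH than in control livers and 0 were higher. In asymptomatic against control livers, 0 genes of any of these 6 lists were called.

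**Figure D4:**
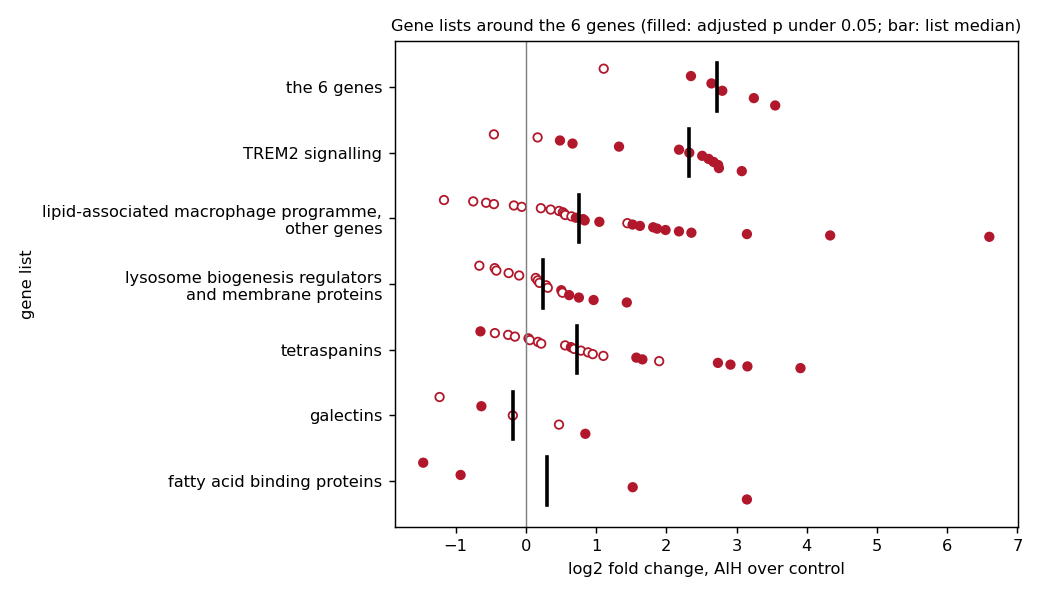
Log2 fold change of AIH over control livers (horizontal axis) for the tested genes of each pathway or family list, below the 6 genes themselves. Each point is a gene, filled where the adjusted p was under 0.05, and bars are list medians, which run from 2.72 for the 6 genes and 2.33 for TREM2 signalling to -0.19 for galectins; the point at the far right is Cst7, whose controls lay near 0.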

How the data were processed

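Total RNA of 14 mouse livers was sequenced, and the authors deposited 1 table of raw counts per library. HISAT2 2.1.0 and HTSeq 0.9.0 are listed, with FastQC 0.11.5, cutadapt 1.12, R 4.0 and edgeR, per the submitters' processing notes, which list builds of human and mouse. The gene IDs are those of mouse. The sources used here do not give the annotation release or strand setting, so reads of overlapping antisense genes cannot be told apart. Cd9 overlaps Gm26728 and Gm28809 on the other strand, which had 0 to 4 counts each per library.

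From the deposited counts, 5 summary rows per table were left out (reads not aligned, 3.23% to 9.27%; several alignments, 28.8% to 37.0%; ambiguous, 1.38% to 3.05%; no feature, 2.29% to 3.29%). Symbols and positions came from GENCODE vM21 (GRCm38). Genes were filtered with filterByExpr, scaled by TMM and tested two-sided by quasi-likelihood in edgeR 4.0.16 (with limma 3.58.1 under R 4.3.3). All 14 libraries entered a single model with 1 coefficient for each group. The Benjamini-Hochberg adjustment covered all 14638 tested genes, and calls needed an adjusted p under 0.05. CPM are TMM-scaled, and standard errors (SE) were derived from F. A second fit replaced TMM by the mean log2 level of 8 macrophage markers. The nearest profiles used log2 CPM with a prior count of 2. Levels per length use the union of exons.

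The members and lists were chosen with earlier results of these data known. Named list genes are up to 4 per list with the smallest p in AIH against control livers, genes of a differing direction, and the 3 nearest profiles per member. Tyrobp, Clu, Cd36, Lipa, Plin2, Tfeb, Tfe3, Mitf, Lgals1, Lgals9 and the copies of Cd63, Cd9 and Fabp5 were added after their values were seen.

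In simulated counts, 79 of 98 genes changed 4-fold and 26 of 95 changed 2-fold were called in AIH against control (13847 genes tested), 81 of 97 and 33 of 94 in asymptomatic against control (13820), and 86 of 97 and 38 of 97 in AIH against asymptomatic (13881). Of the unchanged genes, 7 of 13654, 3 of 13629 and 5 of 13687 were called. Far fewer genes changed there than were called in the real AIH comparisons. The adjusted p depends on that share, so these rates need not hold for the real data. Nothing states that replicates came from separate litters or days. Replicates differed by a chi-square of 15.0 to 239 per gene, so none is a repeat deposit. Alternatives were RLE factors, library totals, removal of the 20 most abundant genes, 2 other filters, DESeq2 1.42.0, limma-voom, a robust spread, the 2 groups alone, sex as a term, each sex alone, 3 macrophage markers, and each library left out. A list of 7 of the 8 macrophage markers was added after the data were seen. Some genes that the rule took are not reported here. Figures were drawn with matplotlib 3.10.9.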

Additional observations from a re-analysis of the deposited data

Results flagged for a closer look

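Cd63 in AIH 3 was 49.9 CPM, against 5.499 to 12.9 CPM in the other 4 AIH livers. Its gap to the nearest of them was 0.834 of the group's whole range, above Dixon's limit for 5 samples. The check used CPM, and the flag holds on that scale only. On the log2 scale AIH 3 was at 1.85, AIH 2 at -0.102 and AIH 5 at -1.33 from the group mean, a smaller gap for its range. Each of the 6 genes was checked in each of the 3 groups, 18 checks in all, and chance passes this limit in about 1 of 20 groups. AIH 3 also had the highest level of the processed copy Cd63-ps (14.8 CPM) and the highest summed stellate cell and fibroblast markers (610 CPM) and bile duct markers (24.6 CPM) of the AIH livers. Their part in the value was not tested.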

How the results depend on the processing

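No paired analysis was possible because the replicate numbers follow accession order and pair no animals. Of the alternative values, 669 kept their direction and side of the threshold, 28 lost a call, 13 gained one, 9 changed sign and 14 counts moved by over 1.5 times; for all that follow the cause was not tested, except that a single sex leaves fewer libraries and only 1 AIH male. Genes called in AIH against control livers were 3174, and 839 among females and 555 among males. In asymptomatic against control livers 0 genes were called (1542 at p under 0.05 before adjustment), against 118 with DESeq2 and 1299 with limma-voom, and 0 to 13 with 1 library left out, 13 being without asymptomatic 2. In AIH against asymptomatic livers 4351 were called, 1372 with sex as a term and 980 among males. Of the 6 genes, 2 were called in AIH against control livers among males, and 3 in AIH against asymptomatic livers, where sex as a term also gave 3. Relative to macrophage markers, calls in AIH against control livers were 2, and 4 when scaled by 3 of the markers alone, with 2 to 4 when 1 library was left out; in AIH against asymptomatic livers they were 4, with 2 to 4. Cd9 in asymptomatic against control livers ran from -0.59 to 0.0249 over libraries left out, and from -0.74 to 0.11 relative to macrophage markers, positive without control 4 in each. Relative to these markers, AIH against asymptomatic livers gave Cd9 0.0107 with the 3 markers, and Fabp5 -0.16 with 7 of the 8 markers and -0.29 to 0.36 over libraries left out; Trem2 with these 7 was 0.87 (edgeR adjusted p = 0.0906). With library totals alone the log2 fold changes over all tested genes had a median of 0.13 in AIH against control livers and 0.17 in AIH against asymptomatic livers, against -0.01 and -0.03 with TMM. The low counts of Gpnmb and Trem2 outside AIH limit how small a difference between asymptomatic and control livers could be seen.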
